A study of Mus musculus with 2 samples.

Results

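The habenula bins were 975 small squares of brain section, out of 222933, in which transcripts typical of the medial habenula were counted together. Each bin measured 16 µm on a side and held at least 100 unique molecular identifiers (UMIs, each standing for 1 captured probe molecule). A bin was a member when the 3 by 3 block of bins centred on it held 5 UMIs or more summed over Tac2, Chrnb4, Chrna3, Gpr151 and Nwd2, with at least 3 of these 5 genes present. The members were therefore selected on the measured counts of those 5 genes, which are given below as a description and appear in no comparison. They comprised 268 of 119617 bins in the section taken 3 days after injury and 707 of 103316 bins in the section taken 28 days after injury.

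Both sections came from male C57Bl6 mice that had undergone controlled cortical impact (CCI), a blow from a piston to the surface of the cortex on 1 side. By the paper's account the mice were aged 3 months when injured, so the mouse taken 28 days later was older at collection. The brains were fixed by perfusion, embedded in paraffin and assayed with Visium HD, which reads pairs of gene-specific probes hybridised to the tissue on a grid of barcoded squares. Each time point was 1 section of 1 mouse, both mice were injured and received no treatment, and no uninjured mouse was analysed here. The comparator available within each brain was the side opposite the impact, which is not an uninjured control.

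The habenula is a paired epithalamic nucleus beside the third ventricle that relays forebrain signals to the midbrain. Its medial division sends axons through the fasciculus retroflexus to the interpeduncular nucleus, and it is known for an unusually dense set of nicotinic acetylcholine receptors and for its part in nicotine aversion and withdrawal. Classically, the dorsal part of the medial habenula contains neurons that make substance P, while the ventral part contains neurons that make acetylcholine and also release glutamate. The lateral division projects instead to the monoaminergic midbrain and carries a different set of genes.

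Chat and Tac1 lay in different places within the habenula bins, so their promoters and that of Slc18a3 are shown, from RefSeq on GRCm38.p6, as 250 bases before to 50 bases after the annotated start. Chat encodes the enzyme that makes acetylcholine and lies at chr14:32408203-32465909 on the minus strand. Slc18a3 encodes the vesicular acetylcholine transporter and lies at chr14:32462437-32464850, within 1 intron of Chat on the same strand, with the start sites 1059 bases apart. Tac1 encodes the precursor of substance P and lies at chr6:7555061-7562978 on the plus strand. Capitals mark CGTCA, the core of the cAMP response element, which was searched on both strands and was found in 20.8% of all 32851 promoters of that length; a match describes the letters only.
Chat, chr14:32465860-32466159, minus strand: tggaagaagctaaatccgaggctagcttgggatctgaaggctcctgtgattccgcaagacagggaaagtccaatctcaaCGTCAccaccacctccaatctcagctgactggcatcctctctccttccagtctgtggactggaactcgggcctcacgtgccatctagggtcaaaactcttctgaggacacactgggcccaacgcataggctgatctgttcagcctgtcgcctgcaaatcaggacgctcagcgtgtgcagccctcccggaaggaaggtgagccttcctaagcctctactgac
Slc18a3, chr14:32464801-32465100, minus strand: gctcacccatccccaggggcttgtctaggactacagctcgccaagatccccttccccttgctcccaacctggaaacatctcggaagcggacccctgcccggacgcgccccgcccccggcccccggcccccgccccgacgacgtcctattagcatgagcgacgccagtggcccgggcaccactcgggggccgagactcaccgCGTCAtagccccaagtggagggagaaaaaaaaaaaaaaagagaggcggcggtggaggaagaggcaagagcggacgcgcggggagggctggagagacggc
Tac1, chr6:7554811-7555110, plus strand: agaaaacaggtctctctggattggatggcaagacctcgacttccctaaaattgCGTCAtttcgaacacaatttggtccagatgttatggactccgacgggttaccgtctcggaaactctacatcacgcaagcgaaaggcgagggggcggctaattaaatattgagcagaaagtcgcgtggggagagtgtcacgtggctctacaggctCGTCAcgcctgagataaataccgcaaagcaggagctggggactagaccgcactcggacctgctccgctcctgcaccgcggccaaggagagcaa

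In the map of the members, nearly all habenula bins lay in compact patches on either side of the line that divides the sides. That line is a fixed array column and not a measured midline. At 28 days the patch centres lay 396 µm from it on the injured side and 221 µm on the opposite side. At 28 days the injured side carried a patch of 359 bins, 416 µm high and 400 µm wide, and the opposite side a patch of 337 bins, 400 µm high and 352 µm wide. At 3 days the opposite side carried a full patch of 239 bins spanning 336 µm in each direction. The injured side at 3 days held only a strip of 26 bins, 48 µm high and 144 µm wide. The remaining 3 and 11 member bins were scattered away from the patches. In all, the habenula bins covered 0.0686 mm² at 3 days and 0.181 mm² at 28 days, or 0.224% and 0.684% of the bins of their sections. Whether the small strip and the difference in area came from the plane of section or from the tissue cannot be told apart with 1 section per time point.

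**Figure D1:**
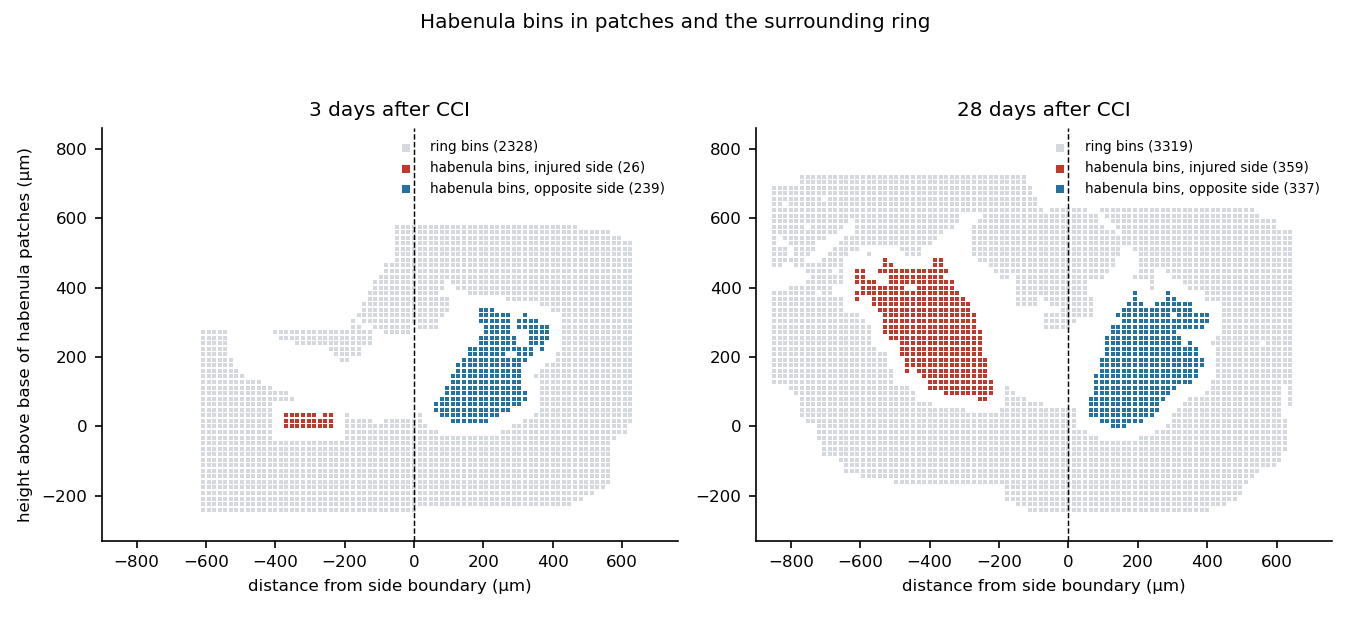
Habenula bins in patches (red, injured side; blue, opposite side) and the surrounding ring (grey), plotted by distance from the line that divides the sides and by height above the lowest patch bin, both in µm. The 28-day section carried a full patch on each side (359 and 337 bins), whereas the 3-day section carried a full patch of 239 bins on the opposite side and a strip of 26 bins on the injured side.

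The 2 sections held 120484936 UMIs at 3 days and 82294625 UMIs at 28 days, with medians of 851 and 610 UMIs per bin. Habenula bins were deeper than these, with medians of 1578.5 UMIs and 1259 genes at 3 days and of 1405 UMIs and 1142 genes at 28 days. Their counts summed to 451367 UMIs at 3 days, of which 40865 lay on the injured side, and to 985521 UMIs at 28 days, of which 483673 lay on the injured side. Levels below are UMIs of a gene per 1000000 UMIs (CPM) of such sums. Ratios are log2 ratios of CPM after adding 0.5 UMI, and the ranges in parentheses are exact conditional 95% intervals that cover counting error only. Since bins of 1 section are not replicates and each time point was 1 mouse, no difference was tested against the spread between animals. A bin can hold parts of several cells, so fewer cells of a type and less RNA per cell cannot be told apart in these sums.

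The genes of the rule showed where the line between members and other bins fell. Tac2, which encodes neurokinin B, stood at 1520 CPM in the habenula bins at 3 days and 1236 CPM at 28 days, and Nwd2 stood at 820 and 1045 CPM. The nicotinic subunits Chrnb4 and Chrna3 stood at 188 and 195 CPM at 3 days and at 279 and 286 CPM at 28 days, and the orphan receptor Gpr151 at 237 and 471 CPM. These genes differed in how far they were confined to the habenula bins, since members held 68.5% and 88.7% of the Chrnb4 UMIs of their sections but 14.8% and 40.3% of the Tac2 UMIs. The subunit pair lies in a cluster with Chrna5 on chromosome 9 spanning 68127 bases, yet Chrna5 itself had 2 UMIs in the habenula bins at 3 days and 4 at 28 days. At the threshold, the 11 and 22 members whose block held exactly 5 UMIs had 199 and 279 CPM of Gng8, a gene outside the rule, against 535 and 867 CPM in the other members. The levels at the threshold rest on only 2 and 5 Gng8 UMIs. The 15 and 16 bins just outside, with 4 UMIs of 3 or more genes, had 0 and 145 CPM of Gng8, on 0 and 2 UMIs.

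Habenula bins were compared with the tissue around them, a ring of bins 48 to 240 µm from a patch, which held 2328 bins at 3 days and 3319 bins at 28 days. The ring carried genes of the midline thalamus, dentate gyrus and choroid plexus, and its bins were shallower, with medians of 990 and 621 UMIs. Of 10059 genes with 50 UMIs or more over both groups at 3 days, 6.44% were at least 2-fold higher and 10.9% at least 2-fold lower in the habenula bins. At 28 days the shares among 10243 genes were 5.93% and 11.4%. The median ratio over all genes was 0.06 at 3 days and 0.07 at 28 days. Because habenula bins were deeper, counting UMIs per bin raises every ratio against the ring by 0.46 at 3 days and 0.74 at 28 days, and the genes past 2-fold, 648 higher and 1095 lower at 3 days and 607 and 1168 at 28 days, become 1877 and 724, and 3550 and 576. All ratios against the ring below are shares of UMIs, relative to that shift, so those between 0 and -0.46 at 3 days or between 0 and -0.74 at 28 days turn positive per bin. A gene nearly absent from the ring entered this comparison only through the habenula bins, so the counts below describe the lists and carry no test.

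Genes known from medial habenula neurons stood well above the ring. Of the 18 listed genes, 14 had enough UMIs at 3 days, and 9 of these were at least 2-fold higher and 0 at least 2-fold lower, with a median ratio of 2.17. At 28 days 16 had enough, 10 were at least 2-fold higher and 0 lower, with a median of 2.68. Gng8 (ENSMUSG00000063594), a G protein gamma subunit encoded at chr7:16891737-16895451, stood at 527 CPM in the habenula bins and 5.96 CPM in the ring of the 3-day section, and at 856 and 13.7 CPM in the 28-day section. The ratios were 6.43 (5.76 to 7.27) and 5.95 (5.50 to 6.48). The homeodomain factor Pou4f1, which specifies habenular neurons and lies at chr14:104461675-104468118, was the member of the list most confined to the habenula bins, which held 83.0% and 82.5% of its UMIs in the 2 sections. Its levels were 195 CPM in the habenula bins and 1.05 CPM in the ring of the first section, and 187 and 3.60 CPM in the later one.

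The other genes of the list spanned a wide range. The serotonin receptor Htr5b reached ratios of 6.67 and 7.24, and the Wnt inhibitor Wif1 reached 4.72 at 28 days. The orphan receptor Gpr139 reached 4.71 and 4.63, the nuclear receptor Nr4a2 3.56 and 4.60, and the ETS factor Etv1 2.58 and 3.38. Htr5b was nearly absent from the ring, with 3 UMIs in each section and intervals of 5.26 to 9.20 and 5.89 to 9.75. The zinc finger factor Zic1 was more widely present, with ratios of 1.76 and 1.93. Of the vesicular glutamate transporter genes, Slc17a7 was at ratios of 1.40 and 0.93, whereas Slc17a6, the form of most thalamic neurons, was at -0.84 (-1.18 to -0.53) and -0.15 (-0.38 to 0.08). The calcium-binding protein gene Calb2 was nearly as high in the ring as in the habenula bins, with ratios of 0.24 and 0.47.

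Chat, Slc5a7 and Slc18a3 were almost absent from the surrounding tissue. Chat counted 62 UMIs in the habenula bins and 3 in the ring at 3 days, and 164 and 2 at 28 days, for ratios of 6.82 (5.41 to 9.35) and 7.53 (5.98 to 10.91). Slc5a7, which encodes the choline transporter that resupplies the enzyme, counted 62 and 3 UMIs at 3 days and 148 and 2 at 28 days, for ratios of 6.82 (5.41 to 9.35) and 7.39 (5.82 to 10.76). Slc18a3 counted 34 UMIs in the habenula bins and 0 in the ring at 3 days, too few for the comparison, and 81 against 2 at 28 days, a ratio of 6.52 (4.93 to 9.90). Ache, which breaks acetylcholine down and is made by many neurons, stood much closer to the ring, at ratios of 0.27 (-0.14 to 0.64) and 1.05 (0.76 to 1.34). In all, 2 of 3 cholinergic genes were at least 2-fold higher at 3 days and 4 of 4 at 28 days.

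Receptor genes differed by subunit. The nicotinic subunit Chrnb3 counted 96 UMIs in the habenula bins and 1 in the ring at 3 days, a ratio of 8.67 (6.73 to 14.56), and 212 and 5 at 28 days, a ratio of 6.77 (5.65 to 8.54). The widespread subunits gave lower values, Chrnb2 at 1.38 and 0.95 and Chrna4 at -1.57 (-2.89 to -0.64) and 0.07 (-0.41 to 0.52). Outside the rule, 2 of 3 nicotinic subunits with enough UMIs were at least 2-fold higher at 3 days and 1 of 4 at 28 days, with 1 at least 2-fold lower in each section. Both subunits of the GABA-B receptor, the slow inhibitory receptor for GABA, were higher, Gabbr1 at 1.41 and 1.24 and Gabbr2 at 1.22 and 1.38. Its auxiliary subunits went different ways, since Kctd8 was at 3.85 and 4.49, Kctd12 at -0.80 and -0.62, and Kctd16 at -2.42 and -3.29. The mu opioid receptor Oprm1 was at 0.91 (0.46 to 1.32) and 2.11 (1.80 to 2.43), and the nociceptin receptor Oprl1 at 0.42 and 1.04.

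Neuropeptide genes did not share 1 direction, with medians of -0.15 over 8 genes at 3 days and -0.30 over 11 genes at 28 days. Of these, 2 and 3 were at least 2-fold higher and 1 and 3 at least 2-fold lower. The summed UMIs of the list were above the ring, at ratios of 0.52 (0.38 to 0.66) and 0.16 (0.05 to 0.27). Tac1 had the highest ratio of the list at 3 days, with 288 CPM in the habenula bins against 6.66 CPM in the ring, and stood at 171 against 7.57 CPM at 28 days. Its ratios were 5.40 (4.73 to 6.21) and 4.46 (3.83 to 5.22). Adcyap1, which encodes the peptide PACAP, gave 4.43 and 2.48, and Cartpt, which encodes the CART peptide, gave 4.73 at 28 days on 70 UMIs. The cholecystokinin gene Cck was at 0.31 and -0.30, and the granin Scg2 at -0.32 and 0.01.

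**Figure D2:**
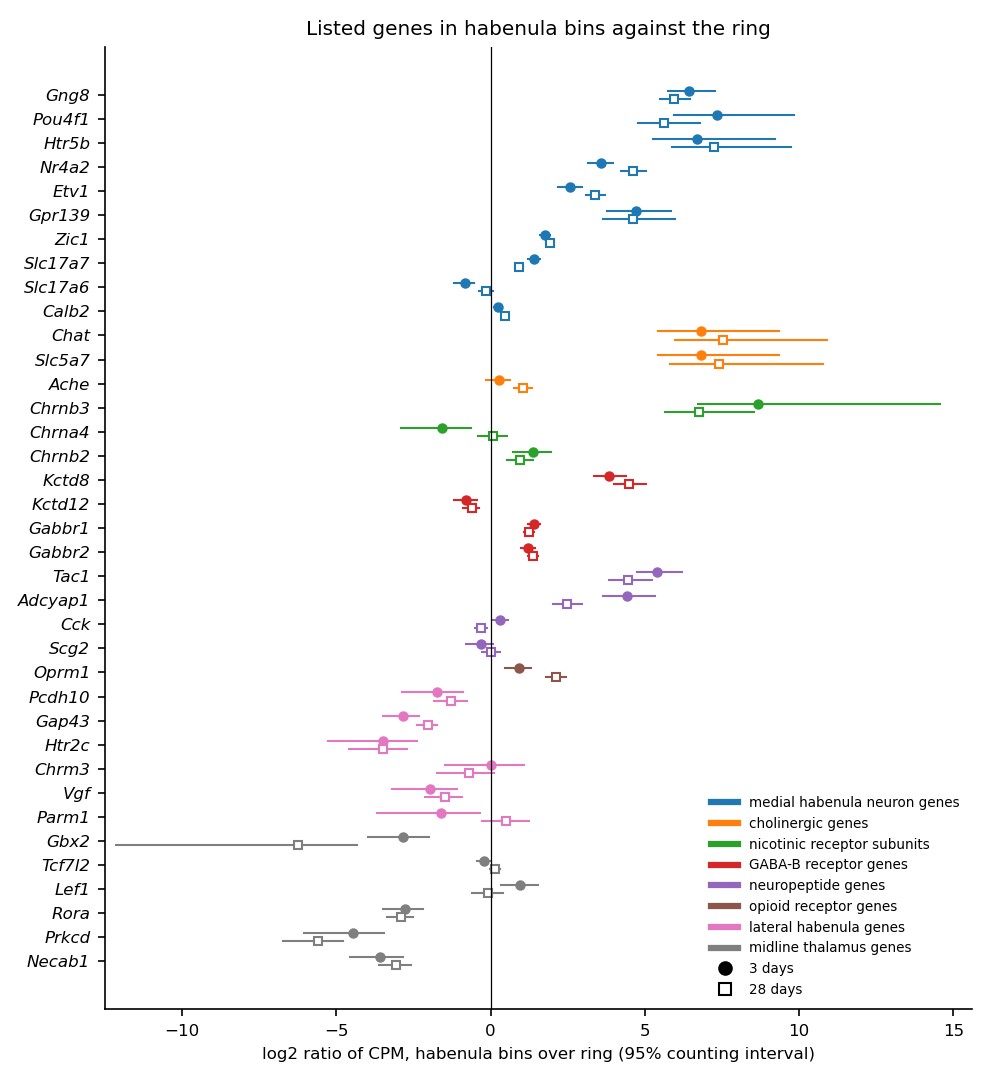
Log2 ratios of CPM in habenula bins over the surrounding ring for listed genes, at 3 days (filled circles) and 28 days (open squares), coloured by list, with exact 95% counting intervals. Gng8 at 6.43 and 5.95 and Chat at 6.82 and 7.53 lie far to the right, and most lateral habenula and midline thalamus genes lie to the left of 0.

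The label was checked against genes of the neighbouring nuclei. Lateral habenula genes were lower in the habenula bins than in the ring, with a median of -1.85 over 6 genes at 3 days, 5 of them at least 2-fold lower, and of -1.28 over 7 genes at 28 days, 4 of them at least 2-fold lower. The serotonin receptor Htr2c was at -3.50 in both sections, and Gap43, a growth cone protein, at -2.84 and -2.03. Thalamic genes were lower too, the midline factor Gbx2 at -2.83 and -6.24 and the kinase gene Prkcd at -4.47 and -5.61. The bins thus carried the genes of the medial habenula, and the name habenula is used here in that narrower sense. Genes listed for the lateral habenula were lower than in the tissue around. That ring also carried choroid plexus, dentate and thalamic genes, so these low ratios cannot show whether lateral habenula lay in the bins. Other cell types were also counted. Ependymal genes, from the lining of the ventricle, had a median ratio of 1.34 with 3 of 6 genes at least 2-fold higher at 3 days and of 0.46 with 2 of 6 at 28 days. Oligodendrocyte genes were near the ring (medians 0.23 and 0.21), whereas microglia genes (-0.81 and -0.89) were lower. Astrocyte genes had medians of -0.31 and -0.72, both within the ranges that turn positive on UMIs per bin.

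Beyond the lists, the genes highest over the ring in both sections were ranked by the smaller of their ratios. Of 4591 genes with 200 UMIs or more in each section, 142 were at least 2-fold higher and 325 at least 2-fold lower in both. The first was Scube1 (ENSMUSG00000016763), a secreted and membrane-bound protein gene, with 275 UMIs in the habenula bins against 5 in the ring at 3 days and 711 against 23 at 28 days, for ratios of 8.31 and 6.41. Gng8 came next, followed by Lrrc55, an auxiliary subunit of the calcium-activated BK potassium channel, at 5.17 (4.84 to 5.53) and 5.10 (4.81 to 5.42). The pore-forming subunit of the same channel, Kcnma1, was also among the first 15, at 3.59 and 3.58, as was the potassium channel partner Kcnip1 at 3.45 and 3.91. Genes of cyclic GMP signalling were represented by Gucy1a1, a subunit of the soluble guanylyl cyclase, at 4.05 and 3.83, and by the phosphodiesterase Pde2a at 4.02 and 4.23.

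The rest of the 15 had varied roles. Syt6, a synaptotagmin, was at 6.72 and 4.70, Necab3, a calcium-binding protein, at 4.24 and 4.24, and Cacnb3, a calcium channel subunit, at 3.73 and 3.62. Gfra1, the GDNF coreceptor, was at 3.91 and 4.63, and the synapse organiser Cbln2 at 3.71 and 4.06. Pld5 was at 4.84 and 4.02, and the transcription factors Nr4a2 and Neurod1 at 3.56 and 3.66 at 3 days and at 4.60 and 3.36 at 28 days. For 14 of the 15 genes, 25 RefSeq promoters were matched. ATTAAT, a core bound by POU4 factors, was in 1 of the 25 (4%) against 4.75% of all promoters, and CAGATG, an E-box, in 4 of the 25 (16%) against 17.2%. CGTCA was in 3 of the 25 (12%), from Lrrc55, Nr4a2 and Pde2a.

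At the other end stood genes of the ring's own structures. C1ql2, made by dentate granule cells, had 0 UMIs in the habenula bins of both sections against 435 and 400 in the ring. Against a limit of 3 UMIs, that is at least 22.9-fold lower at 3 days and at least 47.4-fold lower at 28 days. The others were choroid plexus genes. Tmem72 was at 0 UMIs in both sections against 430 and 396 in the ring, at least 22.7-fold and 46.9-fold lower. Kcnj13, a potassium channel, was at 0 UMIs against 526 at 3 days, at least 27.7-fold lower, and at 1 against 527 at 28 days, a ratio of -6.96 (-12.85 to -5.06). Kl, which encodes klotho, counted 2 UMIs against 693 and 1 against 627, for ratios of -5.46 (-8.83 to -3.92) and -7.22 (-13.10 to -5.32). The transthyretin gene Ttr, at 32239 and 33418 CPM in the ring, stood at 425 and 249 CPM in the habenula bins, with ratios of -6.24 and -7.07.

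Within the habenula patches, genes did not lie evenly. Each of the 3 full patches was divided into 3 equal parts by height, dorsal being the direction in which the cortex lay, and separately into 3 equal parts by distance from the line dividing the sides, medial being nearer that line. The parts of a patch held 79, 119 and 112 bins in the 3-day opposite, 28-day injured and 28-day opposite patches. Of 3295 genes with 20 UMIs or more in the compared parts of each patch, 0.789% were at least 2-fold higher and 0.971% at least 2-fold lower dorsally in all 3 patches. Between medial and lateral parts the shares of 3053 genes were 2.85% higher medially and 1.9% lower. Including the strip of 26 bins left 61 genes, of which 4.92% were at least 2-fold higher dorsally in all 4 patches and 0% lower. The parts also differed in depth, the lateral parts having medians of 855, 665 and 1028 UMIs per bin against 2000, 1634 and 1520.5 medially.

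Tac1 was dorsal and lateral in every full patch. It counted 79 UMIs in the dorsal part and 3 in the ventral part at 3 days, 51 and 10 in the injured-side patch at 28 days, and 43 and 7 in the opposite patch. The ratios were 4.58 (3.20 to 7.10), 2.81 (1.87 to 4.01) and 2.67 (1.59 to 4.15), so all 3 intervals lay above 0. Between medial and lateral parts it counted 4 against 53, 5 against 27 and 1 against 24 UMIs, a median ratio of -4.44. Cck followed the same layout, with a median ratio of 2.97 dorsally and -3.82 medially.

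Chat lay in the opposite corner, medial and ventral, and of the 4 cholinergic genes with 20 UMIs or more along the medial axis Chat, Slc18a3 and Slc5a7 were at least 2-fold higher medially in all 3 patches. Chat counted 36 UMIs medially against 2 laterally at 3 days, 42 against 4 in the injured-side patch at 28 days and 57 against 9 in the opposite patch. Its medial over lateral ratios were 2.85, 2.32 and 2.19, and its dorsal over ventral ratios were -2.84 (-5.41 to -1.33), -2.05 (-4.17 to -0.66) and -1.70 (-2.70 to -0.86). Slc18a3, inside the Chat gene, had medial over lateral ratios of 2.33 (0.62 to 5.75), 1.64 (0.26 to 3.76) and 2.07 (0.49 to 4.66). Along the dorsal axis it was under the minimum of 20 UMIs in 1 patch and was not counted, with 2 against 16, 5 against 20 and 5 against 17 UMIs. Slc5a7 was medial as well, at a median of 2.47, but its dorsal over ventral ratios of -2.96, -0.46 and 0.41 did not keep 1 sign. Ache did not share this layout, with medial over lateral ratios of -0.59, -0.35 and 0.57 and dorsal over ventral ratios of 1.05, 0.66 and 0.64. The 3 cholinergic genes with enough UMIs along the dorsal axis had a median of -0.46, with 1 of them, Chat, at least 2-fold lower dorsally in all 3 patches. The nicotinic subunit Chrnb3 was medial, with 62 against 4, 71 against 9 and 56 against 4 UMIs.

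Bins with each kind of transcript were also counted. In the 3 full patches 61, 61 and 62 bins held a Tac1 UMI, and 73, 116 and 122 bins held a UMI of Chat, Slc18a3 or Slc5a7. Bins with both numbered 10, 18 and 19, where the product of the shares gives 18.6, 19.7 and 22.4. The overlap was thus below that product at 3 days and near it in both 28-day patches, so in those patches the counts of bins with both show no split. Bins with Tac1 lay on average 200, 251 and 233 µm above the base of the patches, and bins with cholinergic UMIs at 106, 164 and 159 µm.

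Other genes followed 1 of these layouts. Etv1 was the most ventral of the listed genes, with dorsal over ventral ratios of -4.47, -3.22 and -2.39, and was medial at a median of 3.04. Nr4a2 was ventral and medial (-2.28 and 1.38), as was the GABA-B subunit Gabbr2 (-2.05 and 1.33). Among the genes highest over the ring, Necab3 lay medially at 2.84, Neurod1 at 2.60 and Lrrc55 at 2.18. By contrast, Gng8 was even along the vertical axis, at ratios of 0.28, 0.10 and -0.36, and higher laterally, at -2.39, -1.45 and -1.40 medial over lateral. The lateral part was also where Oprm1 (-3.62), Adcyap1 (-3.49), Wif1 (-3.64), Calb2 (-3.86) and the calbindin gene Calb1 (-3.20) stood highest. Synpr, a synaptic vesicle gene with 386 UMIs medially against 22 laterally at 3 days, and Stum, at a dorsal median of 3.36, were singled out after their values were seen.

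Genes of other cell types also varied along the same axes. Ependymal genes were medial, with a median ratio of 5.48 and 3 of 3 genes at least 2-fold higher in all 3 patches. The cilia gene Ccdc153 counted 52, 47 and 53 UMIs in the medial parts and 0 in each lateral part. Oligodendrocyte genes were lateral, with a median of -1.94 and 6 of 7 genes at least 2-fold lower medially. Along the dorsal axis, 2 of 2 choroid plexus genes were at least 2-fold higher dorsally in all 3 patches, with a median of 2.35, as were 2 of 3 ependymal genes, with a median of 1.71, and 1 of 3 reactive astrocyte genes, with a median of 1.78. Among the lists of neurons, 3 of 4 cholinergic genes were at least 2-fold higher medially and 3 of 5 neuropeptide genes at least 2-fold lower. The part of ependymal cells, myelin or depth in the neuronal layouts was not tested.

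**Figure D3:**
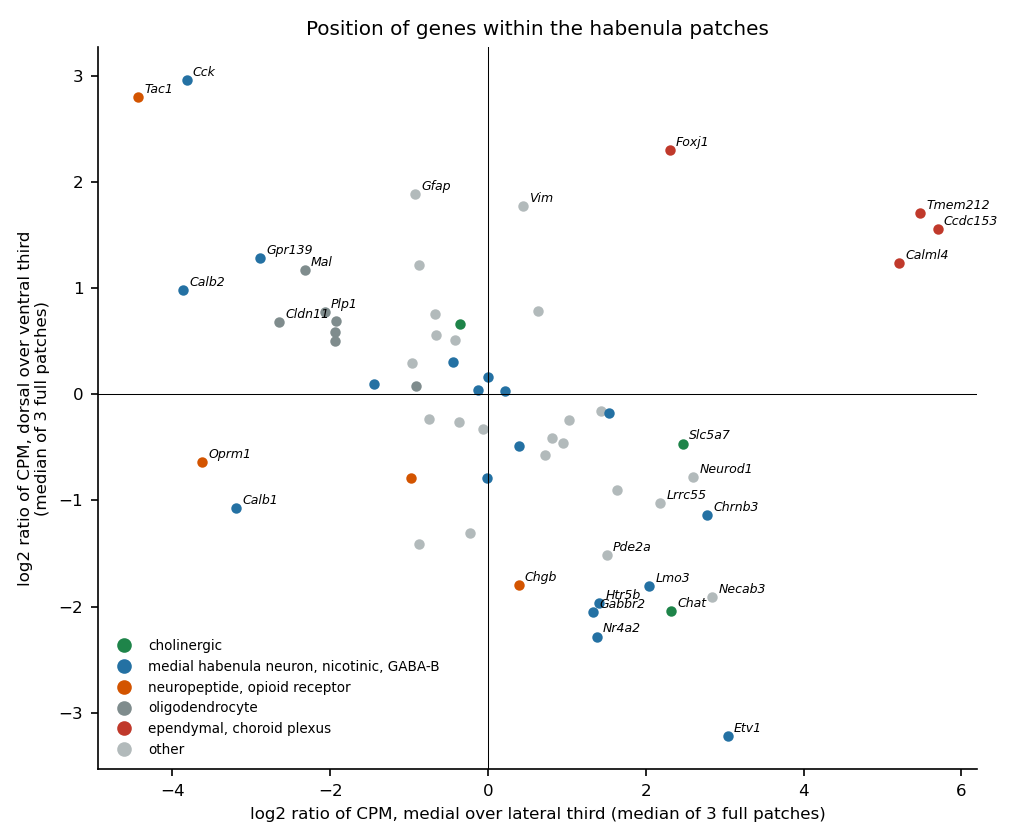
Each point is a gene with 20 UMIs or more in the compared parts of all 3 full patches, either from the lists or among the 15 genes highest over the ring, at its median log2 ratio of CPM medial over lateral (horizontal) and dorsal over ventral (vertical). Tac1 (-4.44 and 2.81) and Cck lie in the upper left, Chat, Nr4a2 and Etv1 in the lower right, and ependymal genes in the upper right.

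The sides were compared last. At 28 days, when each side carried a full patch, the habenula bins on the side of the impact and the opposite habenula bins had similar sums. On either side a bin was summed only if its block held UMIs of the rule genes. Any tissue without them is therefore not part of this comparison. Of 5477 genes with 50 UMIs or more, 0.347% were at least 2-fold higher and 0.274% at least 2-fold lower on the injured side, 93.4% lay within 1.5-fold, and 5.81% had a counting interval off 0, with 159 genes on each side of it. The genes past 2-fold were 19 higher and 15 lower, and 10 and 24 on UMIs per bin, which lowers every ratio by 0.11 (log2 shift -0.11). In the ring of the same section, 26.3% of 9363 genes had an interval off 0 and 83.3% lay within 1.5-fold, though the ring also held more UMIs per gene. Medial habenula neuron genes had a median side ratio of 0.01 over 15 genes, with 0 past 2-fold and 14 intervals that held 0. The remaining gene was Lmo3, a transcriptional cofactor, at 91.0 CPM on the injured side against 149 CPM opposite, a ratio of -0.71 (-1.29 to -0.16).

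Named genes at 28 days gave the same picture. Gng8 stood at 862 CPM on the injured side and 851 CPM opposite, a ratio of 0.02 (-0.18 to 0.22). Pou4f1 counted 99 and 85 UMIs, Tac1 86 and 82, and Chrnb3 117 and 95. All 3 had intervals that held 0. The cholinergic genes did not move together, since Chat counted 67 UMIs on the injured side against 97 opposite, a ratio of -0.48 (-0.95 to -0.02), while Slc5a7 counted 83 against 65, a ratio of 0.40 (-0.08 to 0.90), and Slc18a3 43 against 38. These intervals are narrow enough to leave a 2-fold side difference of Gng8 or Tac1 outside counting error in this mouse, and they give no spread between mice.

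Of the genes with 200 UMIs or more at 28 days, 1005 in number, Ttr was highest on the injured side, at 341 against 159 CPM and a ratio of 1.09 (0.70 to 1.5). In the ring its side ratio was 1.2, and the choroid plexus genes summed to 453 CPM against 261 CPM in the habenula bins. Most of that sum was Ttr itself, and without it the list was at 112 against 102 CPM, a ratio of 0.13 (-0.44 to 0.72), with 1.38 in the ring. The next were Bicral and Npepps, each at 0.57, and Agpat3 at 0.52. Arglu1 (0.49), Magee1 (0.48), Magi1 (0.46), Xpr1 (0.45), Elavl3 (0.44) and Dstyk (0.43) completed the first 10. The lowest was Got1, which encodes the cytosolic aspartate aminotransferase, at 186 against 303 CPM and -0.70 (-1.10 to -0.32), followed by the tubulin-binding gene Stmn1 at -0.56 and the metalloproteinase inhibitor Timp2 at -0.53. Phyhipl (-0.52), mt-Co1 (-0.50), Cntn1 (-0.47), Tceal9 (-0.46), Fau (-0.45), Rasgef1b (-0.45) and Dctn6 (-0.44) followed, so that apart from Ttr no gene of this depth reached 2-fold.

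Microglia, complement, reactive astrocyte and phagocyte genes differed in their side ratios between the habenula bins and the ring at 28 days. Microglia genes summed to 285 CPM in the habenula bins of each side, a ratio of 0.00 (-0.35 to 0.35), whereas in the ring they stood at 604 CPM on the injured side against 364 CPM opposite, a ratio of 0.73. The difference of the side ratios, habenula minus ring, was -0.73 (-1.11 to -0.34). Complement genes differed by -1.40 (-1.91 to -0.89), reactive astrocyte genes by -0.96 (-1.19 to -0.74) and phagocyte genes by -0.86 (-0.97 to -0.75), each with the ring the more one-sided. The intervals held 0 for astrocyte genes, at -0.01 (-0.15 to 0.13), oligodendrocyte genes, at -0.08 (-0.21 to 0.05), and interferon-stimulated genes, at 0.09 (-0.46 to 0.65). Within the habenula bins themselves, reactive astrocyte genes were at 978 against 841 CPM, a ratio of 0.22 (0.03 to 0.41). Without Aqp4, the most abundant gene of the list, the ratio was 0.18 (-0.11 to 0.46), and near the edge only it was 0.02 (-0.27 to 0.31). The best known gene of the list, Gfap, was at 0.22 (-0.14 to 0.59). Of the microglial genes, C1qa counted 37 and 33 UMIs and Tyrobp 12 and 9.

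The composition of the ring moved with these values. On the injured side at 28 days its ependymal genes had a ratio of 1.38, its choroid plexus genes 1.21 and its dentate granule genes -0.33, and the fibroblast list 1.16. The part of these tissues, and of a dividing line closer to the opposite patch, in the ring's glial ratios was not tested. Lists of neuronal genes went both ways. Neuropeptide genes were at -0.02 (-0.20 to 0.17) against -0.80 in the ring, but near the edge only they counted 174 against 82 UMIs, a ratio of 0.78 (0.40 to 1.18). Synaptic release genes were at -0.08 (-0.15 to -0.01) against -0.42. Genes of the neighbouring neurons, which were low in the habenula bins, were at -0.52 against 0.11 in the ring for lateral habenula genes, -0.85 against -0.33 for dentate granule genes and 0.19 against 0.03 for midline thalamus genes. The differences, habenula minus ring, were -0.63 (-1.05 to -0.21), -0.53 (-1.27 to 0.18) and 0.16 (-0.10 to 0.42), so the last 2 intervals held 0.

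**Figure D4:**
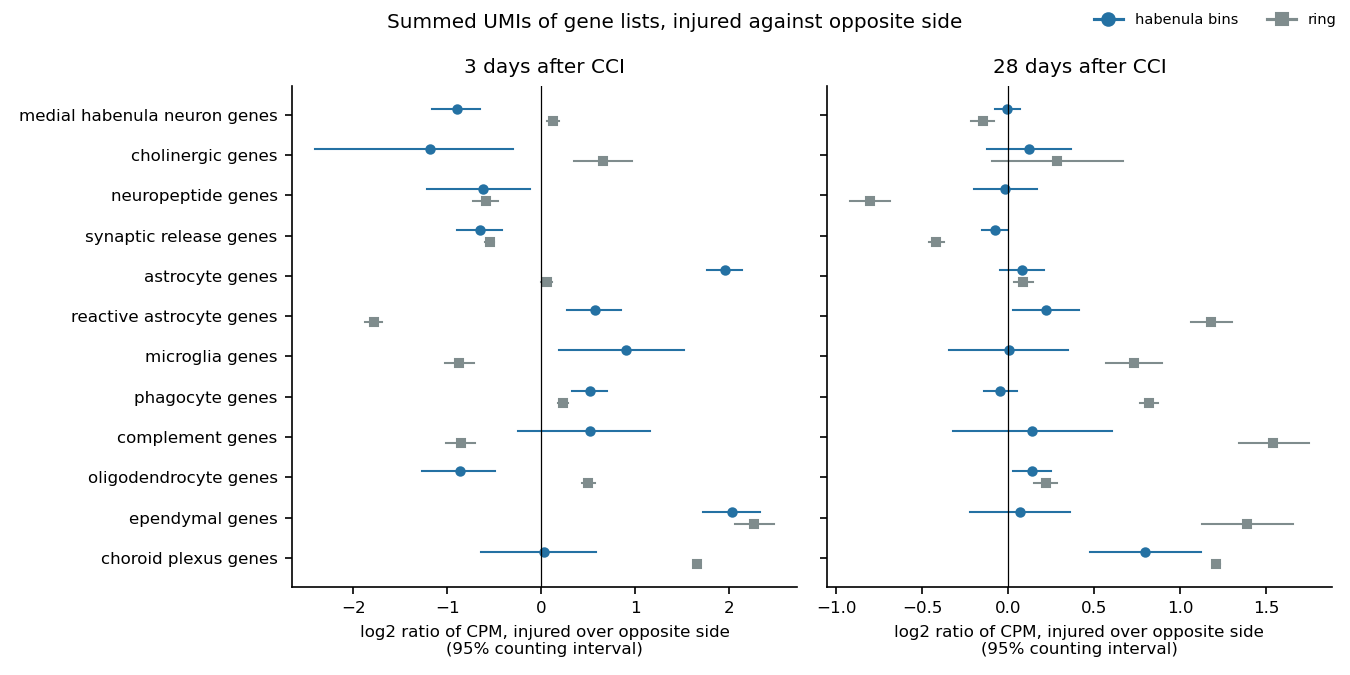
Log2 ratios of CPM, injured over opposite side, of the summed UMIs of 12 gene lists in habenula bins (blue circles) and in the ring (grey squares) at 3 and 28 days, with exact 95% counting intervals. At 28 days the habenula values lie near 0 except for choroid plexus genes, whose sum is mostly Ttr, while microglia (0.73) and complement genes (1.54) of the ring lie to the right, and at 3 days the habenula values rest on the strip of 26 bins.

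At 3 days the injured side rested on that strip, which lay at the edge of the tissue: all 26 of its bins were within 4 bins of a position without tissue, compared with 108 of the 242 opposite bins. Among 2478 genes with enough UMIs, 6.21% were at least 2-fold higher and 14.5% at least 2-fold lower on the injured side, and 57.8% lay within 1.5-fold. That is 154 higher and 360 lower, against 85 and 507 with TMM scaling (a shift of -0.26) and 112 and 422 on UMIs per bin (-0.11). Only 14.3% of the genes had a counting interval off 0, with 151 higher and 203 lower on the injured side. Medial habenula neuron genes were lower there, at a median of -1.34 with 7 of 12 past 2-fold, and their summed ratio was -0.90 (-1.16 to -0.65) against 0.12 in the ring. The ring value rested on Calb2, and without that gene the ratios were -0.99 (-1.31 to -0.70) and -0.64 (-0.73 to -0.55), which brings the difference from -1.02 to -0.36 (-0.68 to -0.05). Gng8 counted 6 UMIs on the injured side and 232 opposite, which is 147 against 565 CPM. Chat counted 0 and 62 UMIs, and Tac1 5 and 125. Limiting both sides to bins near the edge gave a summed ratio for medial habenula neuron genes of -0.77 (-1.04 to -0.52).

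Astrocyte, microglia and ventricle lining genes had higher CPM in the same strip, and oligodendrocyte genes lower. Astrocyte genes summed to 8320 CPM against 2151 CPM opposite, a ratio of 1.95 (1.77 to 2.13), with 0.06 in the ring and a difference of 1.89 (1.70 to 2.08). Ependymal genes were at 3230 against 792 CPM, a ratio of 2.03, with 2.26 in the ring. Near the edge only, the ratios of these lists were 2.29 and 1.24. Reactive astrocyte genes differed from the ring by 2.35 (2.04 to 2.65), with ratios of 0.57 in the habenula bins and -1.78 in the ring, and microglia genes by 1.75 (1.04 to 2.41), on 24 UMIs on the injured side. With members held to 8 UMIs of the rule genes, the microglia difference was 0.97 (-0.22 to 1.98). Oligodendrocyte genes were at 1468 against 2687 CPM, a ratio of -0.86 (-1.27 to -0.50), and near the edge only the ratio was 0.0021 (-0.43 to 0.39). The parts of injury, of edge position and of the tissue mixture in these values cannot be told apart.

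At 3 days 243 genes had 200 UMIs or more over both sides. The highest on the injured side were Sparc at 2.13 (1.67 to 2.56) and Aldoc, an astrocyte enzyme, at 2.10 (1.83 to 2.36), followed by the metallothionein gene Mt2 at 1.78 and by Camk2n1 at 1.504. Sparcl1 (1.43), Cst3 (1.32), Clu (1.14), Mt1 (1.06), Slc38a1 (1.04) and Ywhah (0.96) completed the first 10. The lowest included several of the genes highest over the ring, with Pde2a at -2.27, Necab3 at -2.19, Synpr at -2.05, Scube1 at -2.05 and Gng8 at -1.83. Atp6v1g2 (-1.65), Plch2 (-1.63), Pcp4 (-1.61), Cplx1 (-1.55) and Lrrc55 (-1.47) followed. The ring of that section had side ratios of -1.74 for Synpr, -1.54 for Pcp4 and -2.61 for Cplx1. Its values for the other lowest genes ran from -0.71 (Necab3) to 0.75 (Gng8). For the highest genes the ring was at -1.33 for Mt2 and -0.97 for Mt1, and from -0.22 (Sparcl1) to 0.63 (Clu) for the others.

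Few genes were one-sided the same way in both sections. In the 3-day section alone, intervals lay above 0 for 151 of 2478 genes and below 0 for 203. In the 28-day section alone they lay above 0 for 159 of 5477 genes and below 0 for 159. How many genes unrelated sections would share was not tested. Of 2473 genes with 50 UMIs or more in each section, 4 were over 1.5-fold higher on the injured side in both with intervals off 0, and 0 were lower. They were the phospholipid-binding annexin gene Anxa5 (2.26 at 3 days and 0.80 at 28 days), the lipid phosphatase gene Plpp3 (2.21 and 0.68), Kazn (1.45 and 0.81) and Zfp410 (1.48 and 0.81). Anxa5 counted 25 UMIs against 53 at 3 days, from far fewer bins on the injured side, and 44 against 26 at 28 days. In the ring at 28 days the side ratios were 0.43 for Anxa5, 0.63 for Plpp3, 0.34 for Kazn and 0.17 for Zfp410, and at 3 days 0.40, 0.14, -0.22 and -0.16. Near the edge only, the intervals of 3 of the 4 genes held 0 at 28 days, at 0.56 (-0.45 to 1.68) for Anxa5 and 0.37 (-0.68 to 1.51) for Kazn and for Zfp410, while Plpp3 was at 1.67 (0.44 to 3.33) on 25 against 6 UMIs.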

How the data were processed

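One FFPE brain section per time point was assayed with Visium HD. The deposited files hold UMI counts of 19070 genes per 16 µm bin, which, per the file headers and the submitters' processing notes, the authors made with Space Ranger 4.0.1 on mm10; the counts are raw. The authors did not normalise them in these files. Both sections use the same array grid, so 84781 grid positions occur in each as positions, not as shared cells. The members and the 27 gene lists (252 genes) were chosen with earlier results of these data known.

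Blocks of 3 by 3 bins were summed over all deposited bins, and bins under 100 UMIs were then left out. The injured side was taken as array columns under 130 at 3 days and under 240 at 28 days. The ring held bins 3 to 15 bins from a connected patch of at least 25 members. UMIs were summed per group and given as CPM, with a pseudocount of 0.5 UMI in ratios, a minimum of 50 UMIs per gene over the compared groups (20 for parts of a patch), exact conditional binomial 95% intervals, and exact conditional intervals of 2 by 2 tables for differences of side ratios. A count of 0 was bounded with 3 UMIs over the group. The 5 genes of the rule were left out of every comparison. Doublets do not apply to bins, and no bin was clustered or assigned a cell type.

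Genes named were list genes with 50 UMIs or more, the 15 highest and 5 lowest against the ring by the smaller ratio of both sections with at least 200 UMIs, the 10 highest and 10 lowest by side with at least 200 UMIs, and genes over 1.5-fold one-sided the same way in both sections. A further rule, on dorsal and ventral parts of all 4 patches, left 6 genes with 50 UMIs, of which 3 kept 1 sign (Mt3, Mt1 and Clu). The 3 full patches, and the medial and lateral parts, were therefore added after the data were seen. Intervals were tested on simulated data. Alternatives covered the bin filter, the membership thresholds, the ring, the scaling (TMM factors of edgeR 4.0.16 in R 4.3.3), the pseudocount and the gene filter. Sums, intervals and plots used scipy 1.17.1, numpy 2.4.6, matplotlib 3.10.9 and pandas 2.3.3 under Python 3.11.15. Sequences and loci were taken from RefSeq on GRCm38.p6.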

Additional observations from a re-analysis of the deposited data

Results flagged for a closer look

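The side ratios of 8 items pointed opposite ways in the 2 sections, with each interval off 0 over all member bins and genes. The items screened were the 27 gene lists and the genes named by side, and those genes had been picked on these same ratios. The difference between time points was not tested, since each is 1 mouse, and the 3-day values rest on the strip of 26 bins. Summed lateral habenula genes in the habenula bins were at a log2 ratio of 1.15 at 3 days and -0.52 at 28 days, and dentate granule genes at 1.43 and -0.85. The 3-day values of these lists rest on 12 and 9 UMIs in the strip, and without the most abundant gene of each list, Gap43 and Prox1, they were 0.88 (-0.76 to 2.05) and 1.98 (-0.24 to 3.62). Oligodendrocyte genes were at -0.86 and 0.14. Near the edge only they were at 0.0021 (-0.43 to 0.39) at 3 days and at 0.41 (0.17 to 0.65) at 28 days. In bins with 4 rule genes they were at -0.02 (-0.15 to 0.11) at 28 days. Camk2n1, an inhibitor of the kinase CaMKII, was at 1.504 and -0.28, the chaperone gene Clu at 1.14 and -0.18, and Stmn1 at 2.11 and -0.56. Magee1 was at -1.71 and 0.48, and Ttr at -1.76 and 1.09.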

How the results depend on the processing

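Of 2060 values of 180 results under the alternatives, 1712 stayed close to those reported, and the causes of the shifts below were not tested except where stated. No paired analysis was possible because each time point has 1 section. The number of genes 2-fold or more higher and lower than the ring moved with the ring chosen, the scaling and the gene minimum. At 3 days it was 374 and 468 with a ring of 3 to 8 bins, 2132 and 1898 against all other bins, 1877 and 724 on UMIs per bin, and 193 and 447 with a minimum of 200 UMIs. At 28 days all other bins gave 1443 and 2234, UMIs per bin 3550 and 576, a minimum of 200 UMIs 260 and 483, and the nearer ring 639 lower. With that minimum 5 medial habenula neuron genes were 2-fold higher at either time, since fewer genes were tested.

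Leaving out ring bins with a choroid plexus or ependymal UMI removes those transcripts by construction and turned Kcnj13 to 2.00 and 2.51 at 3 and 28 days, Kl to 4.32 and 2.51, Ttr to 10.59 and 9.87, the summed choroid plexus genes to 11.17 and 10.38, and Tmem72 to 0.93 at 28 days. The summed oligodendrocyte genes against the ring at 28 days turned to -0.036 with 8 UMIs of the rule genes, -0.17 with 4 rule genes, -0.25 with the nearer ring, -0.78 against all other bins and -0.23 without those ring bins, so they have no settled direction.

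Between sides at 3 days, the number of genes 2-fold or more higher and lower was 798 and 857 with a minimum of 20 UMIs, 9 and 34 with 200, 92 and 172 without habenula bins holding a choroid plexus or ependymal UMI, and 54 and 167 near the edge only. Leaving out the bins with a choroid plexus or ependymal UMI kept only 8 of the 26 bins of the strip, and 161 of the 242 opposite bins. TMM scaling gave 85 higher, and a pseudocount of 2 gave 126 lower. At 28 days it was 163 and 129 with a minimum of 20, 1 and 0 with 200, 10 and 24 on UMIs per bin, and 11 and 4 near the edge. Without choroid plexus or ependymal UMIs 10 were higher, and with 4 rule genes 8.

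Summed medial habenula neuron genes were at -1.40 at 3 days with 4 rule genes. At 28 days their ratio was -0.0040 (-0.074 to 0.066) over all member bins. It was -0.076 (-0.148 to -0.003) without bins within 8 columns of the dividing line and -0.11 (-0.18 to -0.04) on UMIs per bin, both with intervals below 0. Oligodendrocyte genes turned to 0.00211 at 3 days near the edge and to -0.0198 at 28 days with 4 rule genes. Phagocyte genes at 3 days turned from 0.52 (0.33 to 0.70) to -0.24 (-0.94 to 0.33) without their most abundant gene, Apoe. Against the ring, their side difference at 3 days was 0.29 (0.09 to 0.48) as reported. It turned to -0.094 (-0.46 to 0.26) with 4 rule genes and -0.33 (-1.01 to 0.28) without Apoe. At 28 days it was -0.74 and -0.71. The side difference of reactive astrocyte genes was 3.00 at 3 days and -0.61 at 28 days with 4 rule genes. That of microglia genes at 3 days was 0.97 (-0.22 to 1.98) with 8 UMIs of the rule genes. That of complement genes at 3 days was 0.10 (-2.23 to 1.73) without the most abundant gene. The intervals of the turned phagocyte values, and of these microglia and complement values, held 0.

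Within patches, 4 rule genes gave 11 genes higher and 15 lower dorsally and 53 higher and 35 lower medially in the 3 full patches, and 21 were lower dorsally with equal upper and lower parts. Over all 4 patches, 0 were higher dorsally with 8 UMIs of the rule genes or with 4 rule genes, and 1 was lower with equal parts. The 3 full patches, the medial and lateral parts, and bins near the edge, and the sums without the most abundant gene, were chosen after seeing the data.

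With 1 mouse per time point, no value has a spread between animals, and time, mouse and plane of section cannot be told apart. The 40865 UMIs on the injured side at 3 days limit that comparison to abundant genes.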
